A study of Homo sapiens with 12 samples.

Results

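The nascent transcription of uninduced Mia PaCa-2 cells was described from the 4 libraries, of 12 in the series, that were raw count tables made without doxycycline (Dox). Mia PaCa-2 is a human pancreatic carcinoma cell line. In 2 of the libraries (MYC controls 1 and 2) the cells are labelled as carrying a stably integrated Tet-on vector for MYC tagged with 3xHA, a label that the check of the transgenes below puts in doubt, and in the other 2 (MED30&MYC controls 1 and 2) vectors for MED30 and for MYC-3xHA. Both lines are transgenic, no parental cells entered the comparison, and none of the 4 libraries had received Dox, the agent that switches the transgenes on. The study used these libraries as the baseline for overexpression, and here they were read on their own, for what both lines transcribed, what neither transcribed, and where the lines differed. Line and batch cannot be told apart, because each line was one set of libraries.

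Precision run-on sequencing (PRO-seq) reads RNA polymerases that are engaged on DNA. Nuclei are isolated and the polymerases are allowed to extend their RNA with biotin-labelled nucleotides, and only this freshly extended RNA is captured and sequenced. A gene's count therefore follows how many polymerases stand on it, introns included, and not how much of its mRNA has accumulated. Unstable transcripts, such as those of the immediate early genes, are thus seen at the rate at which they are made. Genes that overlap others are an exception, because their counts may be incomplete (below). Whether the counts kept the strand was not tested, so polymerases on the opposite strand may be included. A count in a bulk library does not tell whether few cells transcribe a gene strongly or all cells weakly.

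The MYC controls held 26473126 and 24731889 counts and the MED30&MYC controls 26454618 and 1257499, over 28278 gene symbols. MED30&MYC control 2 was thus the shallowest library, in which a gene at 0 could still have a level of up to 2.39 CPM, the usual unit of counts relative to library size, against at most 0.121 CPM in the other 3 (the limit that 3 counts set, for counting error only). The MYC controls were close to technical repeats: their counts differed by a chi-square of 2.25 per gene, a measure near 1 for mere counting error. Between the deep libraries of different lines it was 163 to 172. The measure grows with depth. It was 1.60 between the MED30&MYC controls, and 17.7 and 17.3 between the shallow MED30&MYC control 2 and MYC controls 1 and 2. The 1.60 therefore tells less about how alike those replicates are. No source used here says that replicates came from separate cultures, and p-values below therefore rest on a spread that may be technical, over these samples only. Levels are CPM after scaling by the trimmed mean of M-values (TMM), and levels of different genes are compared only per kilobase (kb) of gene span.

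The labels were checked on the transgenes first. MYC, the transcription factor, read 380.3 and 369 CPM in the MYC controls and 266 and 312 CPM in the MED30&MYC controls, a log2 difference of -0.44 (standard error 0.05, edgeR adjusted p = 5.74e-13). MED30, a subunit of the Mediator complex that links transcription factors to RNA polymerase II, read 31.5 and 30.6 against 51.0 and 60.5 CPM, a log2 difference of 0.74 (standard error 0.08, edgeR adjusted p = 1.23e-14). Reads of transgene and endogenous gene were not separated. The label of the MYC line is in doubt. Dox libraries with that label, looked at for this check alone, read 268 and 277 CPM (unscaled) of MYC and 813 and 657 CPM of MED30, that is, MED30 and not MYC was higher with Dox, whereas in the MED30&MYC line both were. In addition, the log ratio of replicate 1 to replicate 2 correlated at 0.90 over 3296 genes between the MYC controls and the controls labelled MED30. For the MED30&MYC controls the same correlation with the controls labelled MED30 was -0.12. Whether the controls labelled MYC and MED30 come from the same libraries was not tested. The MYC controls are therefore the libraries labelled MYC, whichever transgene they carry.

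The carcinoma label was set against markers of cell types. Vimentin (VIM), the mesenchymal intermediate filament, stood among the 24 most transcribed genes, with 1035, 1062, 708 and 721 CPM. The simple epithelial keratin KRT8 read 233, 226, 243 and 266 CPM, and its partner KRT18 117, 112, 138 and 126 CPM, both in the order MYC controls 1 and 2 and MED30&MYC controls 1 and 2, which is kept below. Some ductal and epithelial markers were low, among them EPCAM, an epithelial adhesion protein, with 20, 14, 6 and 0 counts and the keratin KRT7 with 54, 51, 3 and 0. In either line or in both, 11 of the 20 listed stood above 10 times the background level that MTAP sets below for that line. This bar is low, and in the MYC controls 14174 of 18205 tested genes reached it. All counts of genes above 10 times the MTAP level are meant in this way and are to be read against that share. The pancreatic regulators PTF1A (acinar) and NKX2-2 and ISL1 (islet) and the islet hormone SST, which no other gene overlaps, were at 0 in all 4 libraries. They were the exception among listed genes free of overlap, of which 1 of 11 acinar and 3 of 12 islet markers were at 0. Above 10 times the MTAP level stood 10 of the 20 acinar and 4 of the 20 islet markers. Markers of other cell types were mixed. Of 20 blood and immune markers 8 stood above 10 times the MTAP level, among them CD4 with 1448, 1385, 1008 and 40 counts and CSF1R, a receptor of macrophages, with 1543, 1423, 770 and 37, while PTPRC, which marks all leukocytes, had 17, 10, 9 and 1. Of 12 hepatocyte markers 2 did, with TF, transferrin, at 340, 288, 593 and 24 counts and ALB, albumin, at 6, 3, 3 and 0.

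The genes most densely covered by polymerase in both lines encoded cytoskeletal, growth-response and housekeeping proteins. Of 18797 protein-coding genes of at least 1 kb, ranked by the lower of the line means, TMSB4X, which encodes the actin-sequestering thymosin beta 4, came first. It read 175 and 179.5 CPM per kb in the MYC controls and 160.0 and 159 in the MED30&MYC controls, 379 times the median gene (0.421 CPM per kb). EGR1, an immediate early zinc finger transcription factor, was second, with 162, 157, 149 and 161 CPM per kb in the order MYC controls 1 and 2, MED30&MYC controls 1 and 2. The lines overlapped for EGR1, while TMSB4X was slightly higher in both MYC controls.

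FTL, the ferritin light chain, read 133, 132, 134 and 136 CPM per kb, and ACTB, beta actin, 108, 129, 120.0 and 113. The lines overlapped for ACTB and lay close together for FTL. JUN and FOS, the partners of the AP-1 transcription factor, were also among the first 12, although their lines stood far apart: JUN read 269 and 265 against 132 and 132 CPM per kb, and FOS 335 and 338 against 116 and 104. The list went on with SAT1, the enzyme that acetylates polyamines, EEF1A1, the translation elongation factor, MT1E, a metallothionein, ERRFI1, a feedback inhibitor of the EGF receptor, and H2BC21, a histone H2B gene. These 5 read between 90.7 and 148 CPM per kb in every library.

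The 200 leading genes ranged from 14.8 to 160 CPM per kb and took 6.56%, 6.49%, 6.08% and 6.13% of all counts in the 4 libraries. Ranked by each line alone, the leading 200 of the lines had 155 genes in common. Which genes led rested on the length used: with the union of exons in place of the span, 75 of the 200 remained. The 200 leading genes were short, with a median span of 5.67 kb against 34.6 kb for the other tested coding genes. Cytosolic ribosomal proteins supplied 39 of the 200 (19.5%, against 0.420% of all ranked genes), immediate early genes 14, actin and cytoskeleton genes 11 and translation factors 8. A TATAAA box, the classical core promoter element, lay on either strand of the promoter window (250 bases before to 50 after the start in RefSeq) of 32 of the 172 leading genes with an entry (18.6%), and of 7.16% of tested genes, and the letters TGACG of the cyclic AMP response element in 48.3% and 31.0%.

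**Figure D1:**
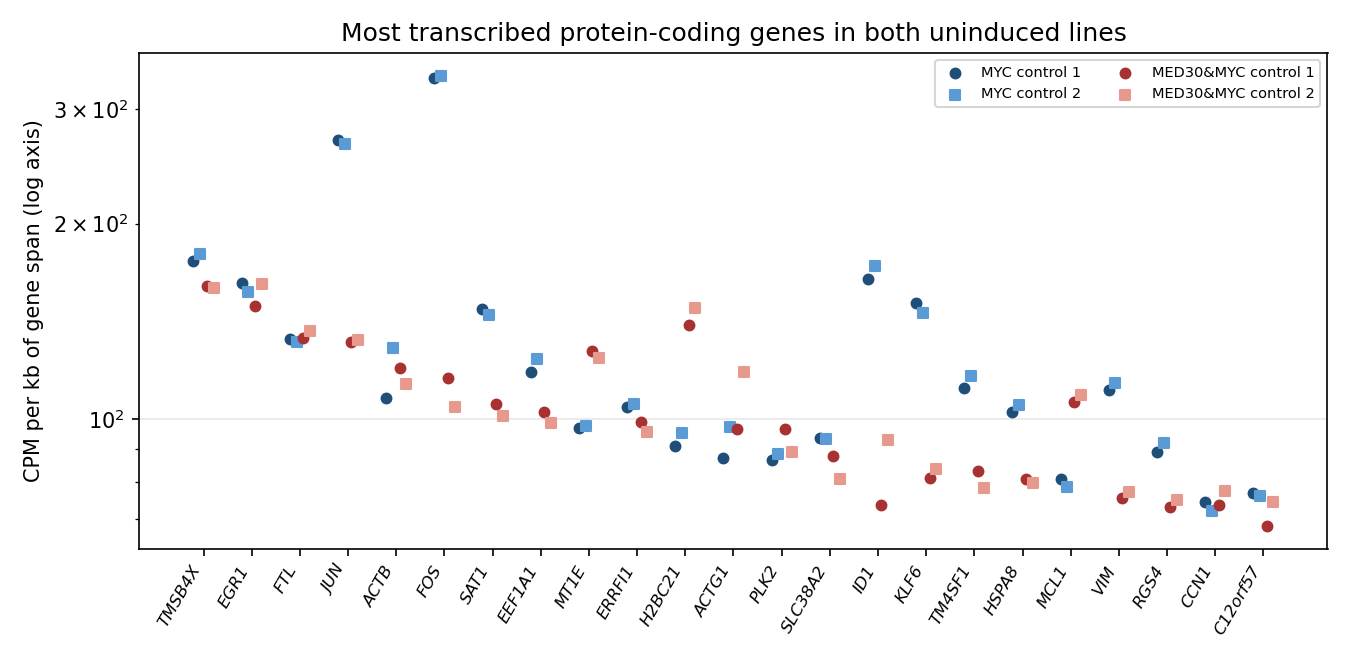
CPM per kb of gene span (log axis) in each library for 23 of the 24 most transcribed protein-coding genes, ordered by the lower of the line means. Each point is 1 library, blue for MYC controls and red for MED30&MYC controls, and FOS, JUN and ID1 lie higher in both MYC controls while the lines of EGR1 and ACTB overlap.

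Per kb, the 8 leading noncoding genes exceeded every coding gene ranked above (those of at least 1 kb). RNU2-1, the U2 RNA of the spliceosome, read 13854, 14251, 14567 and 14058 CPM per kb over its 0.188 kb, with overlapping lines. MIR12136, at 4414, 4251, 15914 and 15474 CPM per kb, lies wholly within another annotated gene, in a stretch of chromosome 1 that copies mitochondrial DNA. SNORD3A, the U3 RNA of ribosomal RNA processing, read 4119.9 and 7327 against 1980.0 and 2018 CPM per kb, with a wide spread between the MYC controls. The ribosomal RNA gene RNA28SN5, a multicopy gene, took 2.32% and 2.43% of the counts in the MYC controls and 0.666% and 0.825% in the MED30&MYC controls. MIR1268A, RNU5E-1, RNU12 and RNU5B-1 completed the leading 8, at 589 to 2395 CPM per kb. Several of these RNAs have near-identical copies, so that their levels are uncertain.

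A total of 6052 genes (21.4% of 28278) had no count in any of the 4 libraries. Whether a gene was at 0 went with its overlap with other genes. Of 2212 genes wholly within a counted gene of the same strand, 95.6% were at 0, and of 1559 wholly within a counted gene of the opposite strand, 86.3%, against 12.5% of the 11238 genes that no other RefSeq gene overlaps. The paper reports that reads were counted on the sense strand of each gene. How strand and overlap were handled in these counts was not tested. ITGA5, the alpha 5 integrin, FKBP4, a cochaperone, and HSPE1, the mitochondrial chaperonin 10, were at 0 in all libraries and lie wholly within other annotated genes. Genes with near-identical copies could be at 0 as well. CBS and NOMO1 were at 0, while NOMO2, a copy of NOMO1, held 645, 671, 1048 and 45 counts. Counts of silent genes below are therefore given over genes free of overlap, and single genes that lie within others are marked as such.

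**Figure D2:**
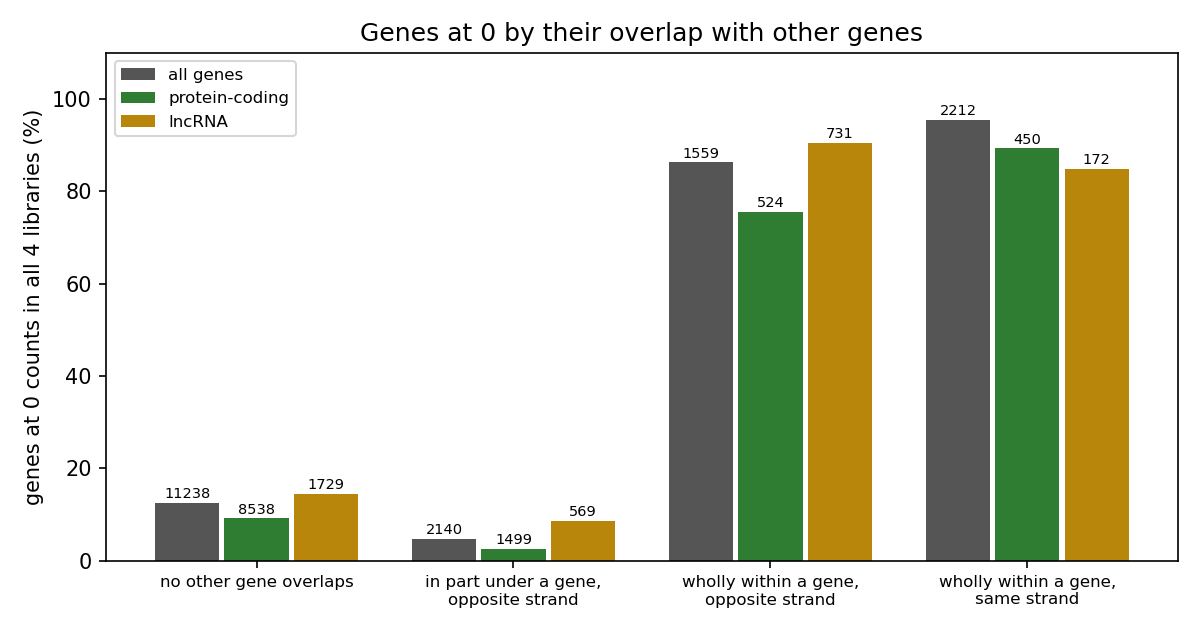
Share of genes (%) at 0 counts in all 4 libraries, by how other genes overlap them for all genes (grey), protein-coding (green) and lncRNA genes (gold), with the number of genes above each bar. Genes wholly within another gene were at 0 in 75.6% to 95.6% of cases, and genes free of overlap in 9.16% to 14.4%.

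Of the 11238 genes free of overlap, 1410 (12.5%) had no count, and 330 had a single count over the 4 libraries. By gene type, 9.16% of 8538 protein-coding genes, 14.4% of 1729 lncRNA genes, 65.7% of 344 microRNA genes and 60% of 50 snRNA genes were at 0. The silent coding genes were short, with a median span of 2.80 kb against 16.9 kb for the rest. The part of length in this silence was not tested.

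Gene families of other tissues supplied many of the silent genes. Of the olfactory receptor genes free of overlap, which are used singly in neurons of the nose, 224 of 282 were at 0, and of the keratin-associated proteins of hair 59 of 70. Late cornified envelope genes, which epidermis uses, were at 0 in 14 of 18 cases, beta-defensins in 17 of 31, and taste receptors in 3 of 13. In contrast, none of 227 zinc finger genes named ZNF was at 0, nor was any of the 30 ribosomal protein genes free of overlap. A TATAAA box lay in the promoter windows of 34.0% of the silent coding genes (201 of 592), against 12% of all promoters of the table.

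HOX genes, which set position along the body axis, differed widely in their counts. HOXB3 held 1955, 1755, 1776 and 117 counts, HOXB9 1493, 1430, 2001 and 111, and HOXA3 700, 576, 1645 and 82. Of the 39 family members 11 were at 0 in all 4 libraries, but 9 of these lie wholly within other annotated genes, and HOXD9 and HOXD11 were at 0 of the 16 genes free of overlap. The cancer-testis genes MAGEA1, MAGEA3, MAGEA4 and CTAG1B, free of overlap, were at 0 too, while PRAME, which lies wholly within other annotated genes, held 131, 151, 375 and 15 counts. Globin genes HBB, HBD, HBG1 and HBG2, also free of overlap, were at 0, while HBA1 held 54, 59, 11 and 0 counts.

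The interferon genes of chromosome 9 and their neighbours had few or no counts. All 13 interferon alpha genes, of which 12 are free of overlap, were at 0 in every library, as were IFNB1, IFNW1 and DMRTA1. IFNE and CDKN2B, a cell cycle inhibitor, were at 0 as well, but lie wholly within other annotated genes. CDKN2A, which encodes p16 and is covered in part by another gene, had 5, 3, 3 and 0 counts over its 27.6 kb. MTAP, a methionine salvage enzyme next to it (chromosome 9, 21802636 to 21941115), had 41, 38, 15 and 1 counts over 138 kb, or 0.0114, 0.0114, 0.00404 and 0.00553 CPM per kb. A loss of both copies of this region is known for Mia PaCa-2. MTAP's level is used as a measure of background reads, and it was lower in the MED30&MYC controls (log2 difference of -1.47, edgeR adjusted p = 0.00145).

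A gene at 0 in one line was not always at 0 in the other. Over genes free of overlap, 431 were at 0 in MED30&MYC control 1 and in neither MYC control, and 174 were at 0 in both MYC controls and not in MED30&MYC control 1. FEZF2, a forebrain transcription factor, held 67 and 51 counts in the MYC controls and 0 and 0 in the others, at least 22.1-fold lower against the limit of 3 counts over the group. GUCA2A, the gut peptide guanylin, held 35, 26, 0 and 0 counts, at least 11.4-fold lower. RTP4, an interferon-induced chaperone of receptors, held 0, 0, 22 and 0 counts and was not tested.

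The uninduced lines differed widely. Of 18578 genes tested with edgeR's quasi-likelihood test at an adjusted p (Benjamini-Hochberg) of 0.05, 6926 (37.3%) were higher and 6768 (36.4%) lower in the MED30&MYC controls. At least 2-fold differences were fewer, with 1933 genes (10.4%) higher and 3122 (16.8%) lower, and the median log2 difference over all tested genes was -0.02. Differences are given throughout as log2 of MED30&MYC controls minus MYC controls. A call by p alone was thus common to 73.7% of genes. The libraries of the lines did not overlap for 14703 tested genes (79.1%), so lines that stood apart were common too. The counts and overlaps below are to be read against these shares. Without MED30&MYC control 1, which leaves the shallow library alone in its line, 3408 genes were higher and 3803 lower.

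**Figure D3:**
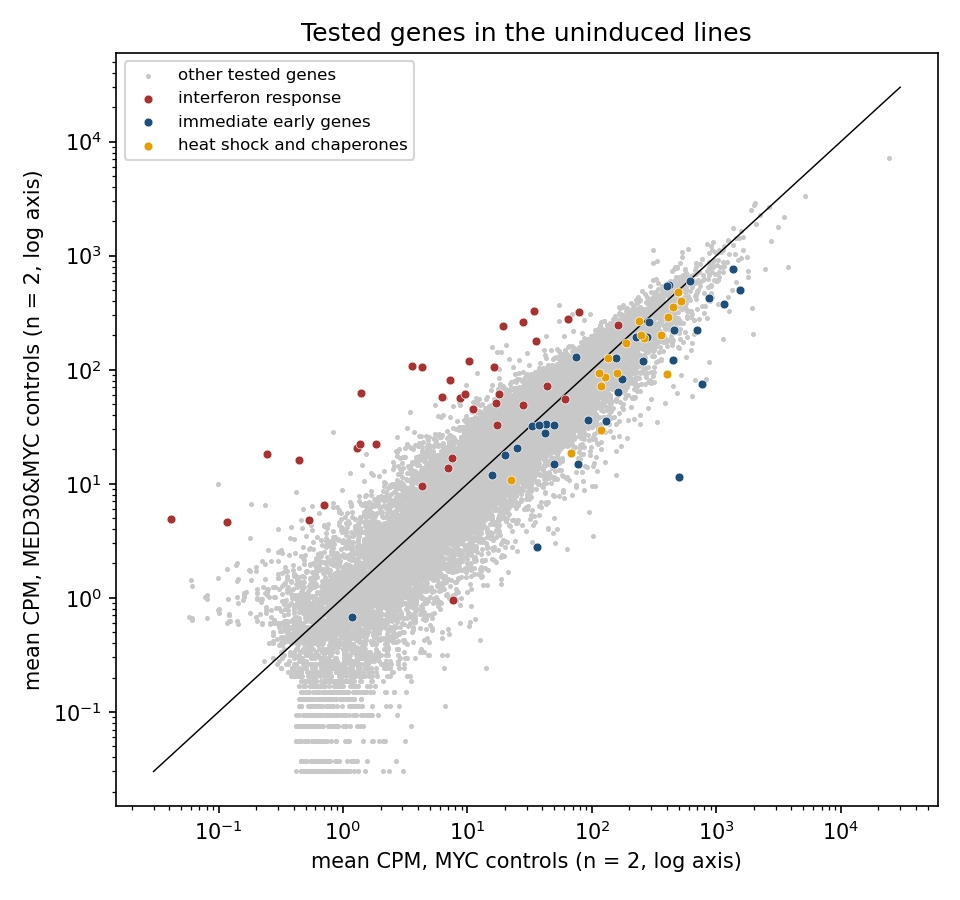
Mean CPM of each tested gene in the MYC controls (horizontal, n = 2) and the MED30&MYC controls (vertical, n = 2), both axes logarithmic, with means under 0.03 drawn at 0.03. The line marks equal levels, and most interferon response genes (red) lie above it while immediate early (blue) and heat shock genes (gold) lie mostly below.

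Interferon response genes were higher in the MED30&MYC controls. Cells sense viral nucleic acids and secrete interferons, whose receptors activate a complex that includes STAT2 and IRF9. This complex binds the interferon-stimulated response element and switches on antiviral genes. Of 36 tested genes of the list, 34 were higher and 2 lower, 30 of them at least 2-fold higher, with a median log2 difference of 2.78 (1 was lower without MYC control 1, without MYC control 2 or without MED30&MYC control 1). Their summed level was 724 and 714 CPM in the MYC controls and 3214 and 3053 CPM in the MED30&MYC controls.

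The promoters of 4 of these genes are shown because each holds the core letters of that response element, GAAANNGAAA (in capitals, on either strand, overlapping matches run together). The windows run from 250 bases before to 50 after the RefSeq start (GRCh38.p14), 5' to 3' in the direction of the gene. OAS3 is at chr12:112938224-112938523 on the plus strand, SAMD9 at chr7:93117930-93118229 on the minus strand, PARP14 at chr3:122680589-122680888 on the plus strand and IFIH1 at chr2:162318635-162318934 on the minus strand.
OAS3: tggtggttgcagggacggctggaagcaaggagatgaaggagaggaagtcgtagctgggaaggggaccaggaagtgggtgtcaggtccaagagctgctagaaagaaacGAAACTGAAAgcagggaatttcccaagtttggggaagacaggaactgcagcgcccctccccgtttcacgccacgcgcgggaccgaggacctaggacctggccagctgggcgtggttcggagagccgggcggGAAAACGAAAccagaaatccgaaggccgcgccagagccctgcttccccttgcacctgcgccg
SAMD9: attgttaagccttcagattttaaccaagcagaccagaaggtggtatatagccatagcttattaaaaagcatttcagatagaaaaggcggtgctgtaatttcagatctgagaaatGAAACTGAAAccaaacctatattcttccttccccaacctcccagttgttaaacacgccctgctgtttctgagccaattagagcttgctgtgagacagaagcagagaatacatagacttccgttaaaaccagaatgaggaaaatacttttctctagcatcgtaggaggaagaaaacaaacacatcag
PARP14: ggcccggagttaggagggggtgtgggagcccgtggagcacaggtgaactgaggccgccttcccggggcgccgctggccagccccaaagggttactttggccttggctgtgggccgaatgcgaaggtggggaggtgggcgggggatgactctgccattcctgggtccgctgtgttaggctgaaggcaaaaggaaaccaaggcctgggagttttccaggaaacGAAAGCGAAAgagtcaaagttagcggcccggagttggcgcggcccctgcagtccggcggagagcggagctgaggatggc
IFIH1: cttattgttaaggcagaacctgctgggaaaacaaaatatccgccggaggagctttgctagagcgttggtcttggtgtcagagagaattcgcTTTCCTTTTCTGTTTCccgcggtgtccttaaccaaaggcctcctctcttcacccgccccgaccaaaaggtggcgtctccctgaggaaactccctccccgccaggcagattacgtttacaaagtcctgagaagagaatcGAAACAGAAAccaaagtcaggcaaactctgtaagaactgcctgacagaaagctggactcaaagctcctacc

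The motif began 143 and 12 bases before the start of OAS3, 136 before that of SAMD9 and 29 before that of PARP14. In IFIH1 it began 159, 153 and 21 bases before the start. It lay in 18 of the 29 interferon promoters with an entry (62.1%), in 2.95% of the promoters of tested genes and in 3.65% of all 27305. Of genes at least 2-fold higher 6.25% held it, and of those at least 2-fold lower 2.28%. Among the interferon promoters without a match were those of OAS1, XAF1, CMPK2 and RSAD2, which are among the widest differences described next.

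Sensors and effectors of viral RNA were among the widest differences. OAS1, which makes the messenger that activates RNase L, read 1.31, 1.46, 59.3 and 66.6 CPM, a log2 difference of 5.44 (standard error 0.14, edgeR adjusted p = 5.67e-60). OAS3, of the same family and shown above, read 4.75, 3.80, 107 and 103 CPM, a difference of 4.63 (0.10, edgeR adjusted p = 6.44e-67). Both libraries of one line stood far from both of the other. OAS2 read 4.10, 3.05, 111 and 103 CPM (log2 difference 4.94), and the 3 OAS genes are neighbours on chromosome 12. XAF1, an interferon-induced promoter of apoptosis, was near background in the MYC controls at 0.193 and 0.292 CPM and read 16.4 and 19.9 CPM in the others (log2 difference 6.08). Members this low in the MYC controls may have entered the test only through the MED30&MYC controls, where they were high. They therefore add little to the count of higher members.

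CMPK2, a mitochondrial nucleotide kinase, and its neighbour RSAD2, the antiviral enzyme viperin, gave 0.502, 0.375, 15.3 and 16.8 CPM and 1.43, 1.17, 25.3 and 16.1 CPM. Their log2 differences were 5.11 and 4.21, and CMPK2, like XAF1, may have entered the test only through the MED30&MYC controls. SAMD9, an antiviral restriction factor, read 1.47, 1.25, 21.6 and 23 CPM (log2 difference 3.99). These genes were low in both MYC controls, without overlap between the lines, which held for 79.1% of all tested genes.

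Genes with a clear level in the MYC controls were higher too. PARP14, an ADP-ribosyltransferase, read 18.1, 20.7, 239 and 242 CPM, a log2 difference of 3.63 (standard error 0.06, edgeR adjusted p = 5.83e-73). IFIH1, the sensor MDA5, read 10.1, 10.3, 129 and 107 CPM, also a difference of 3.63. PARP12, which is not on the list, read 11.3, 12.4, 91.1 and 95.7 CPM (log2 difference 2.95), and IFI16, a DNA sensor outside the list too, 0.812, 0.834, 28.1 and 28.3 CPM (log2 difference 5.08). IFIT1 and IFIT3, which bind foreign RNA, read 28.1, 27.3, 265 and 256 CPM and 32.8, 35.3, 332 and 316 CPM, and IFIT2 165, 161, 243 and 253 CPM, with log2 differences of 3.25, 3.27 and 0.59. All 3 IFIT genes lie wholly within other annotated genes.

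The signalling parts of the pathway were higher as well. STAT2 read 17.3, 16.6, 52.1 and 50.5 CPM (log2 difference 1.61), and IRF9 29.4, 26.5, 50.2 and 48.2 CPM (0.84). IRF1, a related factor, was also higher (0.79), as was ISG15, a ubiquitin-like modifier (0.97). The lower members were IRF7, the regulator of interferon genes, with 7.30, 8.13, 1.90 and 0 CPM (log2 difference -2.10), and ISG20, an RNA exonuclease, with 63.5, 58.0, 53.2 and 58.2 CPM. ISG20's lines overlapped and its log2 difference was -0.18 (edgeR adjusted p = 0.0176).

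Antigen presentation by MHC class I, which shows peptides of the cell to T cells, went the same way. Of 17 tested genes 14 were higher and 2 lower, 9 of them at least 2-fold higher, with a median of 1.12. HLA-B, a heavy chain, read 4.52, 4.92, 19.3 and 20.7 CPM (log2 difference 2.04), and B2M, the light chain, 41.0, 42.3, 91.2 and 82.7 CPM (1.12). PSMB9, an immunoproteasome subunit, gave a log2 difference of 3.55, the peptide transporter TAP1 2.20 and its partner TAP2 1.53, and NLRC5, the transactivator of these genes, 1.33. HLA genes are alike in sequence, and their reads may be shared. PSMB10 (-0.58) and the chaperone CALR (-0.25) were lower.

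Immediate early genes were lower in the MED30&MYC controls. They are the genes that growth factors and stress switch on within minutes without new protein, and most encode transcription factors or feedback phosphatases. Of 34 tested genes 27 were lower and 3 higher, 16 of them at least 2-fold lower, with a median log2 difference of -0.90. The summed level was 11643 and 11366 CPM in the MYC controls against 5792 and 5999 CPM.

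The NR4A orphan nuclear receptors differed most. NR4A3 read 504, 489.7, 10.6 and 12.3 CPM, a log2 difference of -5.54 (standard error 0.08, edgeR adjusted p = 3.14e-81). NR4A1 read 785, 758, 64.5 and 84.2 CPM, a difference of -3.54, and NR4A2 35.1, 36.8, 1.75 and 3.83 CPM, a difference of -4.27. No library of one line reached the other line for any of the 3 receptors, as was so for 79.1% of all tested genes. The promoter of NR4A3 (chr9:99821635-99821934, plus strand, the same window) is shown because it holds the letters TGACG of the cyclic AMP response element, in capitals, at 4 places, beginning 109, 91, 83 and 25 bases before the start.
NR4A3: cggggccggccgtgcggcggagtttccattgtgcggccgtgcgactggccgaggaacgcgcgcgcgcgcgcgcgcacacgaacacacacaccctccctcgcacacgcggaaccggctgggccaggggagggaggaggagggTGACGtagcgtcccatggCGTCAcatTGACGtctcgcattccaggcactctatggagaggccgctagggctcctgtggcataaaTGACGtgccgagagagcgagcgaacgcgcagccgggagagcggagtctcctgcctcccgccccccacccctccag

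TGACG lay in 16 of 26 immediate early promoters with an entry (61.5%), in 31.0% of those of tested genes and in 25.0% of all, on either strand. Of genes at least 2-fold lower 29.9% held it, no more than of tested genes, and of those at least 2-fold higher 23.7%. The window of NR4A1 held 0 matches, and that of EGR1, whose lines overlapped, held 2. The AP-1 genes FOS and FOSB read 1141, 1152, 394 and 354 CPM and 1587, 1521, 489 and 519.9 CPM, with log2 differences of -1.58 and -1.64. JUN read 877, 865, 428 and 430.3 CPM (-1.02), and FOSL1 gave -1.72. KLF4, a zinc finger factor, read 78.4, 77.1, 14.6 and 15.3 CPM (-2.41), and DUSP1, a MAP kinase phosphatase, 449.8, 448, 116 and 125 CPM (-1.94). Other members did not share this direction.

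EGR1 read 620.3, 601, 571 and 617 CPM, with overlapping lines and a log2 difference of -0.06 (standard error 0.05, edgeR adjusted p = 0.227). With library size alone as scaling EGR1 gave 0.00. SPRY4 and SPRED1, inhibitors of growth factor receptor signalling, and MCL1, a survival protein, were higher, with log2 differences of 0.42, 0.74 and 0.42. SPRY4 read 419, 414, 563 and 547 CPM. IER5, BTG2 and DUSP4 did not pass the test.

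**Figure D4:**
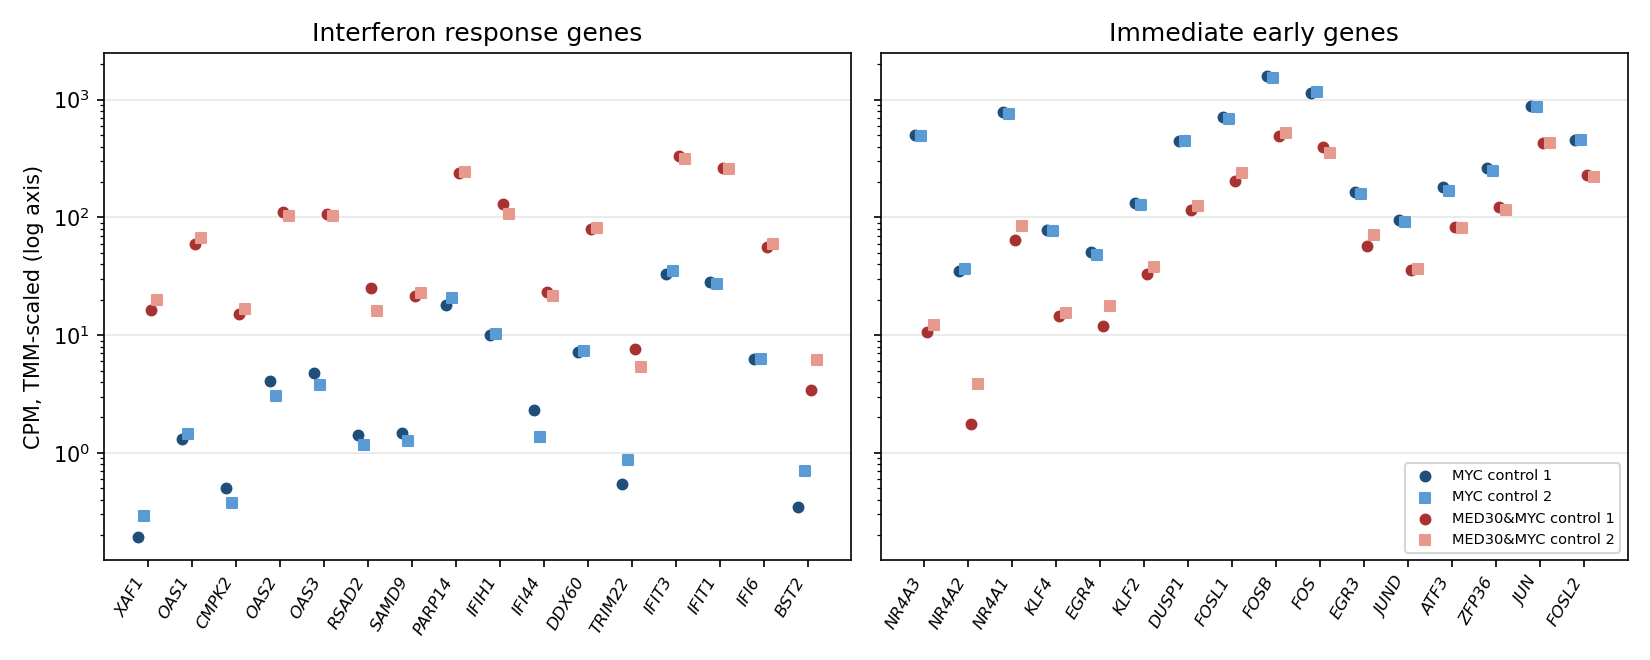
CPM (TMM-scaled, log axis) in each of the 4 libraries for the 16 interferon response genes (left) and 16 immediate early genes (right) with the largest differences among members above 0.15 CPM in every library. Circles and squares are replicates 1 and 2, blue for MYC and red for MED30&MYC controls. In every gene drawn the lines are apart, as they were in 79.1% of all tested genes.

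Inhibitors of differentiation, TGF-beta targets and matrix genes were lower as well. TGF-beta and BMP ligands signal through SMAD proteins, and the ID proteins, which block basic helix-loop-helix factors, are among the direct targets. ID2 read 87.1, 86.4, 4.69 and 13.0 CPM, a log2 difference of -4.08 (standard error 0.11, edgeR adjusted p = 3.18e-56), and its neighbour ID2-AS1 -4.45. ID1 read 201, 211, 90 and 113 CPM (-1.15), and ID3, which lies wholly within another annotated gene, gave -2.07. Of the TGF-beta and matrix list 19 of 27 were lower and 3 higher, with a median of -0.77, and without MED30&MYC control 1 the counts were 14 lower and 1 higher. PMEPA1, a feedback inhibitor of the pathway, read 103, 105, 16 and 14.5 CPM (-2.71), and LTBP2, a matrix protein, 208, 199.9, 82.3 and 85.8 CPM (-1.30).

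Heat shock genes were mostly lower by small amounts. Of 18 tested chaperone genes 16 were lower and 1 higher, with 3 at least 2-fold lower and a median of -0.45. HSPA1A, the inducible HSP70, read 119.8, 118, 26.2 and 32.9 CPM (log2 difference -2.16), and its near-identical copy HSPA1B gave -1.95, so that the 2 genes cannot be told apart in full. HSPH1, which recharges HSP70, read 395, 401, 98.6 and 84.2 CPM (-2.04). The member that was higher was HSPA5, the chaperone of the endoplasmic reticulum, with 239, 236, 283 and 249 CPM and a log2 difference of 0.22, which became -0.02 without MED30&MYC control 1 and -0.01 after thinning all libraries to the shallowest.

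Metabolic genes leaned lower, with exceptions in each list. Of 18 glycolysis genes 13 were lower and 2 higher (median -0.58), and 1 was higher without MYC control 2 or without MED30&MYC control 1. LDHA, which turns pyruvate into lactate, read 435, 453, 173 and 156 CPM (log2 difference -1.38), and GAPDH 314, 309, 147 and 145 CPM (-1.09), while PFKM, the muscle type phosphofructokinase, read 30.6, 31.9, 56.0 and 48.2 CPM (0.82). Of 21 hypoxia targets 13 were lower and 6 higher (median -0.60), and 3 were higher without MYC control 2 or without MED30&MYC control 1. The lower targets were led by ANGPTL4, a lipase inhibitor (-2.45), LOXL2, a collagen crosslinking enzyme (-1.69), and SLC2A3, a glucose transporter (-1.63). The glucose transporter SLC2A1 and the hexokinase HK2 gave -1.16 each.

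Of 23 tested genes of the cholesterol synthesis list 14 were lower and 6 higher (median -0.51). SREBP2 switches this pathway on when membranes are short of sterol. HMGCS1, an early enzyme of the pathway, read 218, 218, 81.0 and 75.8 CPM (log2 difference -1.44), and TM7SF2, a sterol reductase, 77.2, 74.8, 35.5 and 36.8 CPM (-1.09). Both genes were high in both MYC controls, without overlap, as in 79.1% of all tested genes.

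Amino acid stress genes leaned the other way. ATF4 is the transcription factor that cells make when amino acids are short, and it drives tRNA synthetases and serine and one-carbon enzymes. Of 25 genes of its list 17 were higher and 5 lower (median 0.44), with 8 at least 2-fold higher, but 10 were higher, 5 of them at least 2-fold, without MED30&MYC control 1. The 5 lower genes became 2 without MED30&MYC control 1, 2 without MYC control 1 and 3 without MYC control 2. WARS1, the tryptophanyl-tRNA synthetase, which interferon also induces, read 315, 307, 857 and 880.5 CPM (log2 difference 1.48). TRIB3, a pseudokinase that restrains ATF4, read 23.9, 25.1, 76.4 and 79.6 CPM (1.65), and MTHFD2, a mitochondrial folate enzyme, 121, 128, 260.1 and 279 CPM (1.09). SLC7A5, a transporter of large neutral amino acids, was lower at 290.1, 287, 165 and 171 CPM (-0.80).

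Genes of DNA replication were lower, and those of mitosis divided. Of 35 replication genes and E2F targets 24 were lower and 4 higher (median -0.55), of which 6 were at least 2-fold lower. UHRF1, which carries DNA methylation through replication, read 160.3, 157, 59.2 and 74.3 CPM (log2 difference -1.39), and RRM2, the ribonucleotide reductase subunit, 469, 457, 229 and 221 CPM (-1.02). The higher genes were RFC4, a subunit of the clamp loader, with 252, 255, 484 and 488 CPM (0.94), CCNE1, cyclin E (1.10), TYMS, thymidylate synthase (0.49), and GINS3, a subunit of the replicative helicase (0.49). Of 31 genes of mitosis 16 were higher and 9 lower (median 0.16), but without MED30&MYC control 1 the counts were 9 higher and 5 lower. CENPA, the centromeric histone, read 26.7, 28.3, 66.2 and 73.5 CPM (1.29), whereas ANLN, a scaffold of the cleavage furrow, read 619, 648, 302 and 310.1 CPM (-1.06).

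Targets of NF-kB, a transcription factor of inflammation, were uneven. Of 20 tested genes 10 were higher and 5 lower (median 0.46), but 2 were lower without MED30&MYC control 1 and 3 without MYC control 1. CXCL8, the chemokine interleukin 8, read 69.5, 71.9, 127 and 99.5 CPM (log2 difference 0.80), IRAK2, a kinase of Toll-like receptor signalling, 18.2, 15.1, 47.3 and 45.2 CPM (1.5), and BIRC2, an inhibitor of apoptosis, 434, 443, 209 and 212 CPM (-1.06).

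Cytoskeletal genes were uneven. Of 26 tested actin and cytoskeleton genes 15 were lower and 8 higher (median -0.39, or -0.07 less genes of like GC content, length and level), and 4 were higher without MYC control 1. LMNA, which encodes the nuclear lamins A and C, read 893, 854, 124 and 111 CPM, a log2 difference of -2.84 (standard error 0.06, edgeR adjusted p = 6.43e-69). ANXA2, a membrane-binding annexin, read 779, 768, 378 and 344 CPM (-1.07), while ACTG1, gamma actin, read 247, 275, 273 and 335 CPM, with overlapping lines. Of 20 targets of YAP and TEAD, which answer to cell density and tension, 10 were lower and 6 higher (median -0.15, or -0.04 so adjusted), and 3, 2 and 1 were higher without MYC control 1, MYC control 2 and MED30&MYC control 1. Among the lower was AXL, a receptor tyrosine kinase, at 119.9, 122, 62.0 and 69.7 CPM (-0.95).

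The MYC network and the Mediator subunits showed no common direction. Of 12 tested genes of the MYC network 8 were lower and 4 higher (median -0.44), but 3 were lower and 2 higher without MED30&MYC control 1. MNT, the repressor that competes with MYC for MAX, read 169.8, 163, 30.8 and 40.6 CPM (log2 difference -2.40), and MAX, the partner of both, 50.1, 53.1, 78.8 and 76.6 CPM (0.61). Of 47 MYC target genes 22 were lower and 16 higher (median -0.09), and 10 were higher without MYC control 1 and 8 without MED30&MYC control 1. RRP12, a factor of ribosome export, read 845, 812, 75.2 and 91.1 CPM (-3.43), and NCL, nucleolin, 369.9, 371, 524 and 507 CPM (0.49). Of 33 Mediator subunits 17 were higher and 9 lower (median 0.25), and 11 were higher without MYC control 1 and 6 without MED30&MYC control 1. MED25, which activators bind, read 83.4, 81.3, 17.4 and 19.1 CPM (-2.23), whereas MED23 read 35.3, 36.5, 73.0 and 61.3 CPM (1.00). Cytosolic ribosomal proteins were divided evenly, with 31 higher and 31 lower of 76 (median -0.01), and 13 were higher without MED30&MYC control 1. RPS24 read 193, 187, 356 and 338 CPM (0.89) and RPL41 98.5, 100.1, 75.6 and 75.8 CPM (-0.39). Translation factors were lower in 16 of 27 cases and higher in 8 (median -0.23), 5 of them without MED30&MYC control 1, with EEF1D at 176, 175, 40.7 and 54.4 CPM (-2.07) and EIF4G2 at 206, 209.7, 404 and 361 CPM (0.92).

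Of 20 genes known for pancreatic carcinoma 14 stood above 10 times the MTAP level in either line or in both. In the MYC controls 14174 of 18205 tested genes reached this bar, so the count does not set the list apart. SMAD4, a tumour suppressor, read 66.4, 68.2, 134 and 125 CPM (log2 difference 0.98). SMARCA4, a chromatin remodeller, was lower (-0.70), and of 19 tested genes of the list 9 were higher and 5 lower, which became 4 and 2 without MED30&MYC control 1. Epithelial markers were lower in 10 of 16 cases and higher in 3, with a median of -0.91, or -0.40 less genes of like GC content, length and level. Without MED30&MYC control 1 the counts were 3 lower and 0 higher (median -0.21), without MYC control 1 they were 6 and 1, and without MYC control 2 they were 6 and 0. CDH1, E-cadherin, read 19.5, 14.5, 1.83 and 2.30 CPM (-3.20) and CLDN4, a tight junction protein, 70.6, 70.4, 16.2 and 23.7 CPM (-2.08). Mesenchymal markers were lower in 11 of 16 and higher in 3 (median -0.84, or -0.67 so adjusted), and in 1 without MED30&MYC control 1, with COL3A1, a fibrillar collagen, at -1.45 and SNAI1, a repressor of CDH1, at -1.26.

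**Figure D5:**
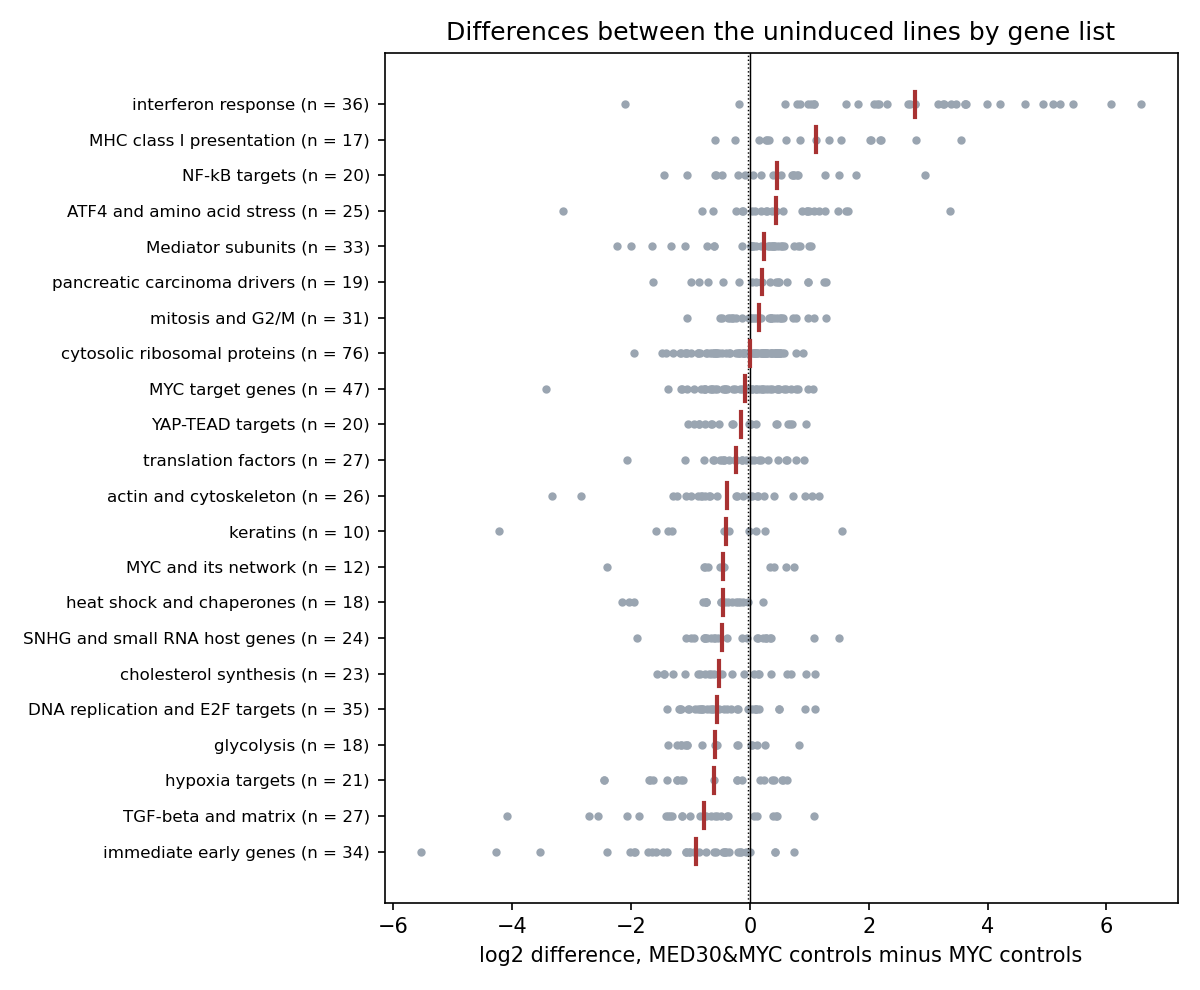
Log2 difference (MED30&MYC controls minus MYC controls) of every tested member of 22 gene lists, one grey point a gene, with the list's median as a red bar and the number of genes in brackets. The dotted line is the median of all tested genes (-0.02). The lists drawn are pathway lists with at least 10 tested genes, though not every such list is drawn. Of those drawn, interferon response (2.78) and immediate early genes (-0.90) lie farthest from the dotted line on either side.

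The largest other differences fell on scattered genes. NFATC2, a calcium-regulated transcription factor, read 103, 99.6, 4.66 and 2.30 CPM (log2 difference -4.48), and CCDC85B, a neighbour of FOSL1, 94.0, 94.8, 4.4 and 6.89 CPM (-4.38). TRIM72, a membrane repair protein of muscle, read 13.9, 14.3, 0.484 and 0 CPM (-4.91). LILRA6 gave -4.91 and its near-identical neighbour LILRB3 -4.07, so that their reads may be shared. C17orf99, SLC5A5, the iodide transporter, and MIR3188, which is mostly covered by another gene, gave -4.69, -4.41 and -4.21. TRIM72, LILRA6, C17orf99 and SLC5A5 held only 13, 6, 10 and 8 counts in MED30&MYC control 1. They may have entered the test only through the MYC controls, where they were high. A gene at 0 in MED30&MYC control 2 could still have up to 2.39 CPM, so their low side rests largely on MED30&MYC control 1. In the other direction MLIP, a lamin-interacting protein, read 3.63, 3.30, 46.8 and 37.5 CPM (3.72).

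Zinc finger genes were mostly higher, as were the few protocadherins that were tested. Of 437 tested ZNF genes 272 were higher and 76 lower (median 0.48), and set against tested genes of like GC content, length and level their median was 0.19. Without MED30&MYC control 1 the ZNF counts were 149 higher and 36 lower, and 43 and 49 were lower without MYC control 1 and MYC control 2. Of 11 tested genes of the protocadherin clusters 10 were higher and none lower (median 1.62), and all of them lie wholly within other annotated genes. Of the family's 53 members 36 were at 0 in all 4 libraries, and its summed level was 9.16, 8.93, 27.5 and 38.3 CPM. Members this low may have entered the test only through the MED30&MYC controls, so their direction carries little weight. Without MED30&MYC control 1, 4 of 6 tested were higher. Replication-dependent histones were lower in 32 of 50 cases and higher in 9 (median -0.29), and the same adjustment turned this median to 0.11. Without MED30&MYC control 1, 18 histone genes were lower and 6 higher, and without MYC control 1 4 were higher.

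Differences went with base composition and level. Of 4 groups of equal size by GC content, the lowest had a median log2 difference of 0.29 and the highest -0.55. Of 4 such groups by level, the lowest had a median of -0.51 and the highest 0.05. The median less that of genes of like GC content, length and level was 2.53 for interferon response genes, -0.56 for immediate early genes, -0.51 for TGF-beta and matrix, -0.34 for heat shock, -0.35 for glycolysis, -0.47 for hypoxia targets, -0.21 for cholesterol synthesis, -0.48 for replication, -0.05 for mitosis, -0.18 for translation factors, 0.15 for ribosomal proteins, 0.07 for Mediator subunits, 0.44 for NF-kB targets and 0.68 for ATF4 targets. Beyond these values, the part of composition in the results was not tested.

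Background reads differed between the lines too, as MTAP showed. Of 2401 tested genes under 3 times the MTAP level in the MYC controls, 26.5% were at least 2-fold lower and 8.79% at least 2-fold higher, with a median of -0.51. Of 14174 genes at 10 or more times that level, 14.4% were at least 2-fold lower and 9.44% higher, with a median of 0.05. Along the genome, the window of 10 megabases (Mb) farthest from 0 was the start of chromosome 19 (0 to 10 Mb), where 178 of 262 genes were lower and 39 higher (median -0.85, or -0.30 less genes of like GC, length and level). On chromosome 7, from 140 to 150 Mb, 32 of 53 genes were higher and 10 lower (median 0.69, or 0.45), among them the zinc finger gene ZNF777 at 24.9, 25.3, 60.7 and 49.0 CPM (log2 difference 1.24).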

How the data were processed

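PRO-seq libraries of Mia PaCa-2 cells without Dox were compared, 2 of the MYC line and 2 of the MED30&MYC line, in the groups that the labels give. The deposited count tables hold whole-number counts of reads per gene, which the authors made with Trim Galore, Bowtie2 (hg38) and featureCounts 2.0.3. The deposited tables of the other line hold values scaled across libraries (named as a score), and they and the Dox libraries served the check of labels alone. Totals were 1257499 to 26473126 counts, whose number limits precision for low genes in the shallowest library.

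Counts were scaled by TMM, filtered with filterByExpr and tested with edgeR 4.0.16 (R 4.3.3) by the quasi-likelihood test, with Benjamini-Hochberg adjustment over 18578 genes. Alternatives were DESeq2 1.42.0, other scalings and filters, thinning, a replicate block and each library left out. On simulated data with 200 changed genes the test recovered 73.7%, 78.1% and 95.7% at 1.5-, 2- and 4-fold over 18578 genes. Of its calls there, 4.05% were unchanged genes. In the real libraries 73.7% of tested genes were called, and the performance of the test with so many differing genes was not tested. Spans, gene types, overlap and promoters came from RefSeq (GRCh38.p14), to which 27618 of 28278 symbols matched. Genes lying within others were kept, and the counting of overlapping genes was read from the counts alone.

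Genes were named by rule: MYC and MED30, the 12 coding and 8 other genes of highest level per kb in both lines, the 12 largest differences in each direction above a mean log2 CPM of 2, members of each list with the smallest p or highest level, marker genes and the windows farthest from 0. Genes outside it were chosen after their values were seen. Members and lists were chosen with earlier results of these data known. Some genes that the rule names are not reported here.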

Additional observations from a re-analysis of the deposited data

How the results depend on the processing

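Of the 6926 higher and 6768 lower genes of the main setting, counts fell to 2951 and 3286 with all libraries thinned to the shallowest, to 4149 and 3967 with DESeq2, and to 1933 and 3122 at a 2-fold difference, a rule chosen after seeing the data. Leaving out 1 library gave 3408 to 7225 higher and 3803 to 6988 lower genes, with the lowest counts without MED30&MYC control 1. With the replicate block 6045 genes were higher and 5618 lower, and with the crossed pairing, added after seeing the data, 6279 and 5762. Same-numbered libraries deviated from their group means with a correlation of -0.01 over all tested genes and -0.13 over 6965 genes above a mean log2 CPM of 5. These values gave no sign that the numbers pair the samples. They cannot exclude a pairing, because the counting error of the shallow MED30&MYC control 2 enters every deviation of its line. Upper-quartile scaling moved the median of all genes to -0.14 and gave 5990 higher and 7797 lower genes, and library size alone 7405 and 6220. The share of higher calls was 50.6%, 43.4% with upper-quartile scaling and 54.3% with library size alone.

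The silent genes common to both lines (at 0 in all 4 libraries) numbered 6052, of which 1410 were free of overlap (a restriction added after seeing the data), and 6059 to 6330 with 1 library left out. Of the 200 most transcribed genes 75 remained with the union of exons as length. EGR1 gave a log2 difference of 0.0039 with library size alone, HSPA5 -0.012 after thinning, KRT8 -0.0094 with upper-quartile scaling and KRT18 -0.043 after thinning. With 1 library left out HSPA5 ran from -0.022 (without MED30&MYC control 1) to 0.26. Over 127 genes, nearly all named in the text, 1715 of 1769 values kept direction and side of the threshold, 45 no longer passed, 4 newly passed and 5 changed sign. Calls of ISG20, KRT8, ACTG1 and HSPA5 were the least stable, and the cause was not tested. The interferon response median was 2.43 to 2.94 over all settings and that of immediate early genes -1.01 to -0.80. At 0 counts the shallowest library allows up to 2.39 CPM.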
